A study of Saccharomyces cerevisiae with 12 samples.

Results

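The genes described here are the 9 that carry out or directly control fatty acid synthesis, elongation and desaturation in Saccharomyces cerevisiae: ACC1 (YNR016C), FAS1 (YKL182W), FAS2 (YPL231W), OLE1 (YGL055W), ELO1 (YJL196C), ELO2 (YCR034W), ELO3 (YLR372W), MGA2 (YIR033W) and SPT23 (YKL020C). They were chosen by their roles and found by systematic identifier, 9 of the 7126 entries that both deposited tables share. Its title concerns chronological lifespan, the time that non-dividing cells stay alive, and its lengthening by hydrogen sulfide at a late growth stage. NaHS, which yields hydrogen sulfide once dissolved, was added to cultures of strain BY4742, and RNA was sequenced from 3 control and 3 NaHS libraries at each of 2 stages, early and late. Early means less and late more than 72 h after inoculation. All groups share the strain, a MATalpha laboratory haploid that carries deletions in HIS3, LEU2, LYS2 and URA3, and the synthetic dextrose complete medium. Neither dose nor hour of harvest is given in the sources used here. The labels do not say if replicate libraries are separate cultures. Each p-value therefore sets a difference against the spread between these libraries, which may be technical.

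Fatty acid synthesis begins when acetyl-CoA carboxylase turns acetyl-CoA into malonyl-CoA, and the cytosolic synthase, built of the FAS1 and FAS2 subunits, then extends the chain. The products are desaturated by OLE1 in the membrane of the endoplasmic reticulum, or lengthened there by the ELO elongases into the very long chains that sphingolipids carry. MGA2 and SPT23 are made as inactive proteins anchored in that same membrane, and their released parts switch on OLE1. In baker's yeast these genes are best known for matching membrane fluidity and lipid supply to growth, oxygen and temperature.

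Early levels are in TPM and late levels in FPKM. Both units measure RNA relative to the length of the gene and to the size of the library, so genes can be compared within a library. The tables were normalized separately, and levels were tested only within a table. Column totals were between 998109 and 998610 TPM and between 1510276 and 2145467 FPKM; neither unit gives the read depth, so no counting interval can be stated. LEU2, LYS2 and URA3 were listed at 0 in all 12 libraries. The alpha-specific MF(ALPHA)1 was at 24.8 to 121 in all 12, and MFA1 and MFA2, the a-factor genes, were listed at 0. Other mating-type genes did not follow the strain's label in every library. The alpha-specific MF(ALPHA)2 was at 1.37 to 9.75 TPM early and listed at 0 in the 6 late libraries. The a-specific BAR1 was at 1.34 to 1.95 TPM early and listed at 0 late, and the a-specific STE6 was at 0.197 to 0.91 in all 12. The a-specific receptor gene STE2 was at 4.19 to 15.4 TPM in the early libraries and listed at 0 in the late libraries. Its alpha-specific counterpart STE3 was at 3.30 to 8.72 TPM early. A 0 in all 6 libraries was listed for 777 of 6007 protein-coding genes in the late table and for 131 in the early one. Early NaHS 3 stood apart from the other early NaHS libraries in ribosomal RNA entries, at 3.20% of its total against 1.70% and 1.44%, with 0.757% to 1.18% in the controls. In the late table, late control 3 held 3.60% of ribosomal RNA entries against 0.259% to 0.959% in the other 5 libraries. The part of these differences in the results below was not tested.

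The 9 genes do not overlap one another or any other gene of the R64 reference annotation, and each has a single coding exon. ACC1 lies on chromosome XIV (654673 to 661374), FAS1 on chromosome XI (100671 to 106826), FAS2 on chromosome XVI (108652 to 114315) and OLE1 on chromosome VII (398628 to 400160). ELO1 lies on chromosome X (67850 to 68782), ELO2 on chromosome III (190592 to 191635), ELO3 on chromosome XII (867354 to 868391), MGA2 on chromosome IX (416124 to 419465) and SPT23 on chromosome XI (398832 to 402080). Aligned from end to end, the coding sequences of ELO2 and ELO3 matched at 62.8% of aligned bases with no identical run over 11 bases. ELO1 matched ELO2 at 65.5% with a longest run of 13 bases, and ELO3 at 63.9% with one of 11. MGA2 and SPT23 matched at 64.7% with a longest identical run of 26 bases. ACC1 and its mitochondrial counterpart HFA1 matched at 64.4%, also with a longest run of 26 bases. FAS1 and FAS2, which encode different subunits, matched at 61.9% by the same alignment. Gaps were left out of every share, so a share near this level does not by itself mark related genes. Whether reads of related genes were kept apart was not tested.

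Because 6 of these genes fell together in early cultures, the 500 bases before each start codon were read on the gene's strand and searched, on both strands, for 3 short motifs known from lipid and growth genes. The core of the inositol-choline response element (ICRE, CATGTGAA), which Ino2 and Ino4 bind, was found before FAS2 and ELO2 and in 1.45% of 6000 such windows in the genome. The low-oxygen response element (LORE, ACTCAACAA), through which MGA2 acts on OLE1, was found before OLE1 and in 0.383% of windows. The Reb1 site (TTACCCG), bound by a general regulatory factor, was found before FAS2 and ELO1 and in 10.1% of windows. The stretches that hold a match are shown because they place known elements beside genes that changed; capitals mark the matched letters, and the matches do not overlap.
FAS2: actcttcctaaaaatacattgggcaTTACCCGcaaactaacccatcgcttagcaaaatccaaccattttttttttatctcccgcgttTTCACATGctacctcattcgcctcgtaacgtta
OLE1: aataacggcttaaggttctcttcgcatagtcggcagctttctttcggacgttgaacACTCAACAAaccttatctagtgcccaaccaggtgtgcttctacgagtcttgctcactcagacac
ELO1: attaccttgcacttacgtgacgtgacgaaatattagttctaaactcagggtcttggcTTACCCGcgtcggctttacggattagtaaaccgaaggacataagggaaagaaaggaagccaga
ELO2: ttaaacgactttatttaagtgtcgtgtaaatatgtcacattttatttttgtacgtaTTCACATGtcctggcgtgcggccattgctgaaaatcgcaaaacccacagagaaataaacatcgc
In R64 these are chrXVI:108331-108450 (plus strand), chrVII:398229-398348 (plus), chrX:68880-68999 (minus) and chrIII:190367-190486 (plus). Each is 120 bases long and printed in the direction of its gene. The ICRE core begins 234 bases before the start codon of FAS2 and 169 before that of ELO2, read on the opposite strand in both, and the LORE begins 343 bases before that of OLE1. The windows of ACC1, FAS1, ELO3, MGA2 and SPT23 hold none of these exact letters. Variant forms of the motifs and more distant sites were not searched, so the elements may still be present. A match is a description of the sequence and no evidence of binding.

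**Figure D1:**
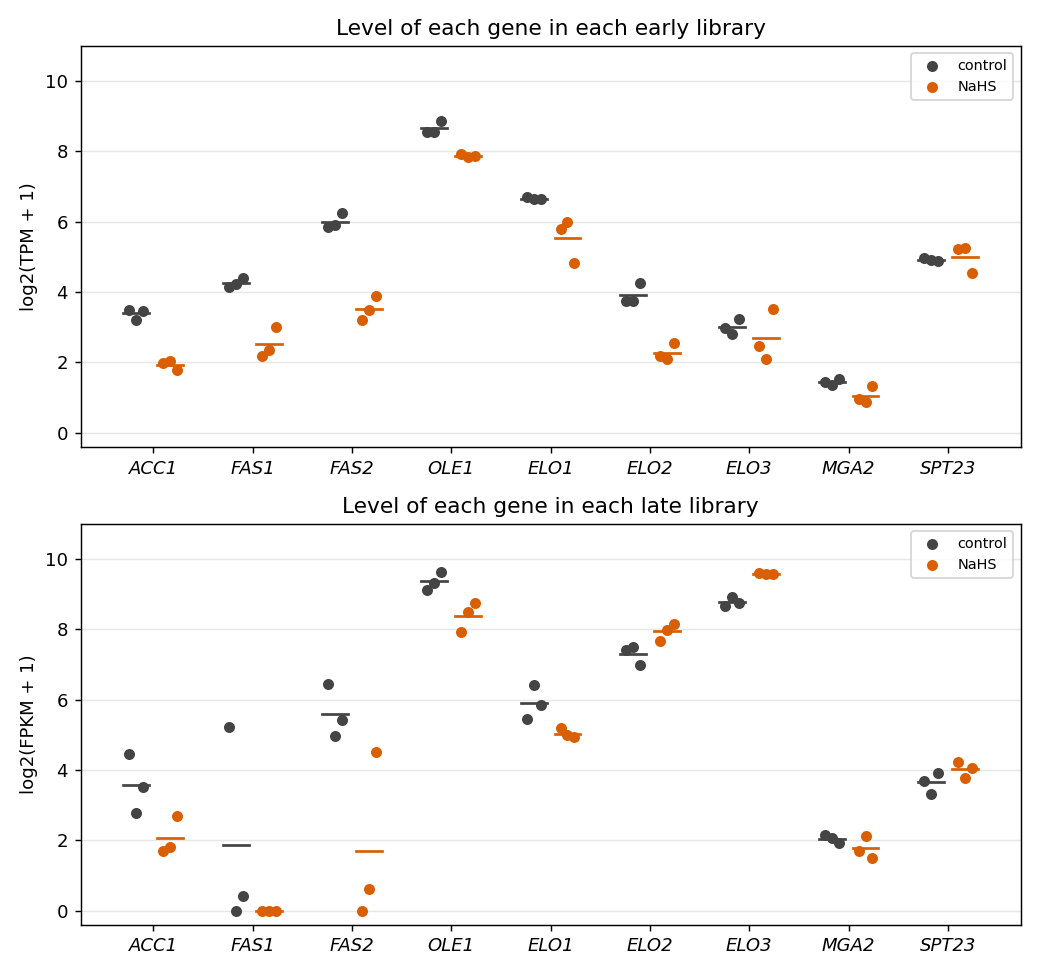
Level of each of the 9 genes in each library, as log2 of the value plus 1 (TPM above for early, FPKM below for late cultures); each point is a library, each bar a group mean of 3, with controls in grey and NaHS in orange. In early cultures the NaHS points lie below the control points for 7 genes, FAS2 showing the widest gap. In late cultures, of 6 genes without overlap, ACC1, FAS2, OLE1 and ELO1 lie below their controls and ELO2 and ELO3 above. FAS2 is listed at 0 in 1 late NaHS library.

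Early in growth, NaHS cultures held less transcript for carbon entry into fatty acids, for the synthase, for desaturation and for 2 of the 3 elongases. Of the 9 genes, 6 fell (ACC1, FAS1, FAS2, OLE1, ELO1 and ELO2), none rose, and ELO3, MGA2 and SPT23 did not pass. A gene was called when limma's Benjamini-Hochberg adjusted p over all 6124 genes tested was below 0.05. By the same test 38.5% of all genes were called, 28.5% lower and 10.1% higher. The median log2 change was -1.11 over the 9 and -0.24 over all genes; all 9 had passed the filter of a mean of at least 1. Without early NaHS 3 all 9 were called, 8 lower and SPT23 higher, and 3253 genes were called in all against 2359. Control and NaHS values did not overlap in 7 of the 9, all lower, against 58.2% of all genes, 41.3% lower. Equalizing libraries by median ratios moved the median of all genes to -0.0097 and called 5 of the 9 (ELO1 was lost), and upper-quartile scaling moved it to 0.081 and called 4 (OLE1 was lost too). In bulk RNA, a lower level in every cell and a lower level in some of the cells cannot be told apart.

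ACC1, the carboxylase that makes malonyl-CoA, was at 10.25, 8.30 and 10.10 TPM in the early controls. With NaHS it was at 2.97, 3.12 and 2.42 TPM. Every NaHS value was below every control value, and the log2 change was -1.46 (SE 0.147, limma adjusted p = 0.000997). FAS1, which encodes the beta subunit of the synthase, was at 16.70, 17.75 and 19.98 TPM in controls and at 3.54, 4.11 and 7.10 TPM with NaHS. The groups did not overlap, with NaHS 3 the highest of the treated libraries, and the log2 change was -1.74 (SE 0.235, adjusted p = 0.00262).

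FAS2, which encodes the alpha subunit with the acyl carrier domain, showed the largest early change of the 9. It was at 57.05, 59.25 and 74.59 TPM in controls and at 8.32, 10.16 and 13.78 TPM with NaHS, a drop to 16.9% of the control mean. The log2 change was -2.48 (SE 0.204, adjusted p = 0.000558), and 0.931% of the 6124 genes had a lower change. The calls for ACC1, FAS1 and FAS2 held in every alternative that could be fitted, with log2 changes of -0.89 or lower.

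The subunits were also compared with each other, since a plain ratio taken within a library does not depend on how that library was scaled. FAS1 stood at 0.293, 0.300 and 0.268 of FAS2 in the early controls and at 0.425, 0.405 and 0.515 with NaHS. All NaHS ratios were above all control ratios, a difference of 0.74 in the log2 ratio of values plus 1. All tests of ratios used values plus 1, which shifts the ratios of low genes and leaves them partly dependent on scaling. The exact permutation test, 2-sided, gave p = 0.1, the smallest that 3 against 3 allows (adjusted p = 0.3 over 12 ratios). ACC1 against FAS1 overlapped between groups, at 0.614, 0.468 and 0.506 in controls and 0.839, 0.759 and 0.341 with NaHS (exact p = 0.4).

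These are 3 of the longest genes tested, at 6702, 6156 and 5664 bases. Among 79 tested genes of at least 5000 bases, 22 fell and 4 rose, and their median log2 change was -0.28 against -0.24 for all genes with a known length. ACC1, FAS1 and FAS2 are among these 79 genes, and each fell by more than their median. The part of gene length in the fall was not tested.

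OLE1, the fatty acid desaturase, was the most abundant of the 9 in every early library. It was at 376.4, 376.2 and 468 TPM in controls and at 241, 227 and 233 TPM with NaHS. The groups did not overlap, and the NaHS libraries lay closer together than the controls. Its log2 change was -0.79 (SE 0.12, limma adjusted p = 0.00388), and 20.9% of all genes had a lower change. With upper-quartile scaling the change was -0.43 and no longer passed (adjusted p = 0.0531). Within libraries, OLE1 stood at 22.5, 21.2 and 23.4 times FAS1 in controls and at 68.2, 55.3 and 32.8 times with NaHS, without overlap (exact p = 0.1, the smallest possible; adjusted p = 0.3).

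Of the 3 elongases, ELO1 and ELO2 fell early and ELO3 did not pass. ELO1, which extends medium-length chains, was at 102.96, 98.46 and 99.05 TPM in controls and at 55.1, 62.8 and 27.5 TPM with NaHS. All treated values were lower, NaHS 3 the lowest, and the log2 change was -1.11 (SE 0.299, adjusted p = 0.0285). The ELO1 call was lost without each control in turn (adjusted p up to 0.0861) and with median-ratio (0.0562) and upper-quartile scaling (0.0541). Without NaHS 3 the change was -0.76 and passed (adjusted p = 0.000808).

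ELO2, which makes very long chains for sphingolipids, was at 12.34, 12.52 and 18.07 TPM in controls and at 3.51, 3.32 and 4.86 TPM with NaHS. The groups did not overlap, and the log2 change was -1.64 (SE 0.203, adjusted p = 0.00197). ELO3, which completes the longest chains, was at 6.90, 6.07 and 8.39 TPM in controls and at 4.56, 3.26 and 10.5 TPM with NaHS. Its NaHS 3 value was the highest of the 6 libraries and the other treated values were below all controls. The log2 change of -0.32 did not pass (SE 0.369, adjusted p = 0.525). Without NaHS 3 it was -0.73 and passed (adjusted p = 0.0209).

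The elongases were also set against each other within libraries. The ratio of ELO3 to ELO2 was 0.559, 0.485 and 0.464 in early controls and 1.30, 0.982 and 2.16 with NaHS, without overlap. The difference was 1.32 in the log2 ratio of values plus 1 (exact p = 0.1, adjusted p = 0.3). ELO1 against ELO2 overlapped between early groups, at 8.34, 7.86 and 5.48 in controls and 15.7, 18.9 and 5.67 with NaHS (exact p = 0.4).

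**Figure D2:**
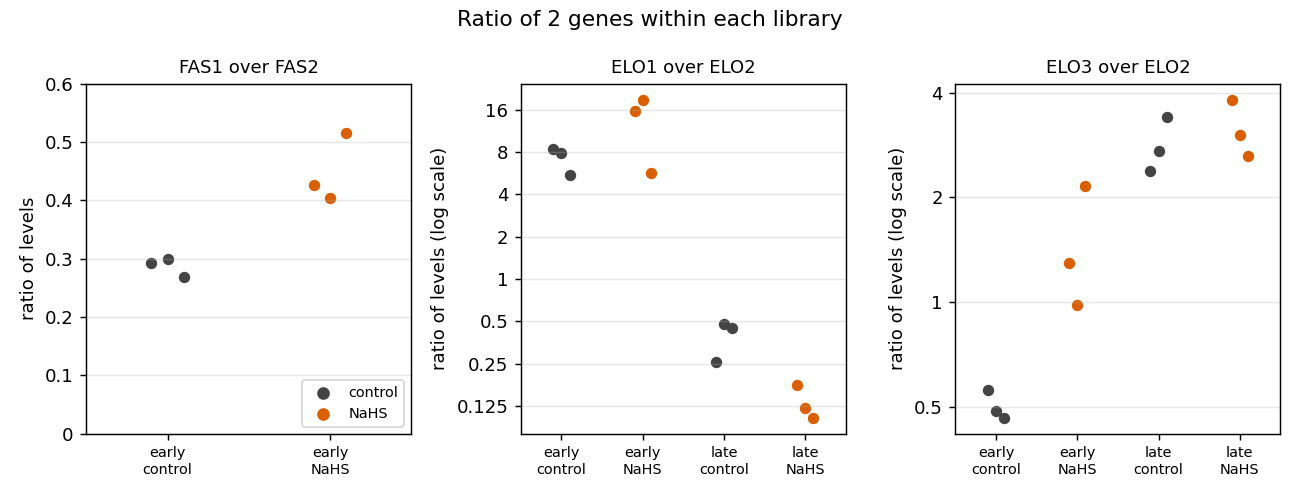
Ratio of 2 genes within each library, 1 point per library, for FAS1 over FAS2 (linear axis, early libraries), ELO1 over ELO2 and ELO3 over ELO2 (log axes, both stages), with controls in grey and NaHS in orange. Early NaHS libraries lie above early controls for FAS1 over FAS2 and ELO3 over ELO2, and late NaHS libraries lie below late controls for ELO1 over ELO2.

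MGA2 and SPT23, the membrane-anchored activators of OLE1, did not pass in early cultures. SPT23 was at 30.59, 29.38 and 28.33 TPM in controls and at 36.34, 37.16 and 22.46 TPM with NaHS. NaHS 3 was below all controls and the other treated libraries above them (log2 change 0.083, SE 0.206, adjusted p = 0.777). MGA2 was at 1.74, 1.58 and 1.88 TPM in controls and at 0.96, 0.82 and 1.51 TPM with NaHS. These groups did not overlap, and the log2 change of -0.40 (SE 0.17, adjusted p = 0.111) is on a scale that understates changes of so low a gene. Without NaHS 3, MGA2 was called lower (-0.53, adjusted p = 0.0266) and SPT23 higher (0.31, adjusted p = 0.0164). MGA2 stood at 0.0569, 0.0538 and 0.0664 of SPT23 in controls and at 0.0264, 0.0221 and 0.0672 with NaHS, so the early groups overlapped (exact p = 0.4). Median-ratio and upper-quartile scaling moved the early change of SPT23 to 0.33 and 0.43, and neither passed.

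In the early controls OLE1, ELO1, FAS2 and SPT23 stood in this descending order of level with no overlap between neighbours. FAS1 and ELO2 followed with overlapping ranges, then ACC1 and ELO3, which also overlapped, and MGA2 was lowest. With NaHS, FAS2 lay below SPT23 without overlap, while the ranges of FAS2, ELO3, FAS1 and ELO2 overlapped in sequence. Together the 9 genes made up 0.0611% to 0.0730% of the total in early controls and 0.0324% to 0.0357% in early NaHS libraries.

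Late in growth, OLE1 fell and ELO3 rose, and the other 7 did not pass. By limma over 5344 genes tested, 15.3% of all genes were called, 9.99% lower and 5.28% higher. All 9 genes passed the filter, FAS1 through 1 control library. The median log2 change was -0.28 over the 7 without a 0 in a library and 0.053 over all genes; with FAS1 and FAS2, whose late zeros make their change depend on the pseudocount, it was -0.88 over the 9. Groups did not overlap in 6 of the 9, 4 lower and 2 higher, against 38.6% of all genes, 19.8% lower and 18.8% higher. Those 4 include FAS2, listed at 0 in 1 late NaHS library. With late control 3, NaHS 1 or NaHS 2 left out, limma called none of the 9, and 413, 448 and 448 genes in all against 816. Without NaHS 3 it called FAS2 alone and 446 genes in all, without late control 2 it called 2 of the 9, and without late control 1 it called 3.

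OLE1 was at 556, 642 and 793 FPKM in the late controls and at 243, 355 and 425 FPKM with NaHS. The groups did not overlap, and the log2 change was -0.98 (SE 0.255, limma adjusted p = 0.0464). The call was lost with 5 of the 6 libraries left out in turn (adjusted p up to 0.148), and its direction held in all 17 alternatives. The call was also lost with equal totals (0.0558), upper-quartile scaling (0.0588), no low-value filter (0.0504), no variance trend (0.0523) and the per-library factors of the late table taken out (0.0588). OLE1 is the gene called lower at both stages among the 9, and the difference between its changes did not pass (late minus early -0.19, SE 0.294, adjusted p = 0.669).

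ELO3 was at 403, 485 and 431 FPKM in the late controls and at 772, 762 and 752 FPKM with NaHS. Every treated value was above every control, and the treated libraries differed from each other by little (SD 10.2 FPKM against 41.6 in controls). The log2 change was 0.80 (SE 0.15, adjusted p = 0.0164). It was 0.74 to 0.87 with libraries left out in turn, and 4 of those 6 fits missed the threshold (adjusted p up to 0.0715). ELO2 was at 168, 178 and 126 FPKM in controls and at 202, 251 and 285 FPKM with NaHS. The groups did not overlap, yet the log2 change of 0.64 did not pass (SE 0.212, adjusted p = 0.0882); with upper-quartile scaling it did (0.75, adjusted p = 0.0472).

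ELO1 lay on the other side. It was at 42.97, 84.7 and 56.2 FPKM in late controls and at 35.3, 30.6 and 29.3 FPKM with NaHS, without overlap, and the log2 change of -0.88 did not pass (SE 0.263, adjusted p = 0.0687). Without late control 1 it did (-1.10, adjusted p = 0.0297). Set against ELO2 within libraries, ELO1 was at 0.255, 0.477 and 0.446 in controls and at 0.175, 0.122 and 0.103 with NaHS. These ratios did not overlap, with a difference of -1.52 in the log2 ratio of values plus 1 (exact p = 0.1, the smallest possible, and adjusted p = 0.3). ELO3 against ELO2 overlapped between late groups, at 2.39, 2.72 and 3.42 in controls and 3.83, 3.03 and 2.63 with NaHS.

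The synthase and carboxylase genes were uneven among the late libraries. ACC1 was at 20.9, 5.83 and 10.4 FPKM in controls and at 2.23, 2.47 and 5.39 FPKM with NaHS. The groups did not overlap, but the controls spread widely and the log2 change of -1.52 did not pass (SE 0.473, adjusted p = 0.075). It passed without late control 2 (-1.92, adjusted p = 0.0386). FAS2 was at 85.6, 30.1 and 41.6 FPKM in controls, and with NaHS it was listed at 0 in NaHS 1 and at 0.520 and 21.8 FPKM in the others. FAS1 was at 36.3 FPKM in late control 1, listed at 0 in control 2, at 0.327 FPKM in control 3, and listed at 0 in the 3 NaHS libraries. No fold change is given for FAS1 and FAS2 here, and neither passed (adjusted p = 0.362 and 0.0655). With NaHS 3 left out FAS2 was called lower (adjusted p = 0.00345).

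Zeros in the late table are frequent, and whether they mark absent transcripts or failed estimates was not tested. Of 6007 protein-coding genes, 1201 were listed at 0 in at least 1 late library and 259 in at least 1 early library. Of the 124 genes of at least 5000 bases, 42 (33.9%) had such a zero, against 19.7% of shorter genes. The library with the most FAS1 was also the control with the most FAS2 and ACC1, late control 1.

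The regulators did not pass late either. SPT23 was at 11.9, 9.01 and 14.2 FPKM in controls and at 17.8, 12.5 and 15.7 FPKM with NaHS (log2 change 0.37, adjusted p = 0.298). MGA2 was at 3.44, 3.20 and 2.80 FPKM in controls and at 2.24, 3.32 and 1.84 FPKM with NaHS (log2 change -0.28, adjusted p = 0.439). Both overlapped between groups.

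**Figure D3:**
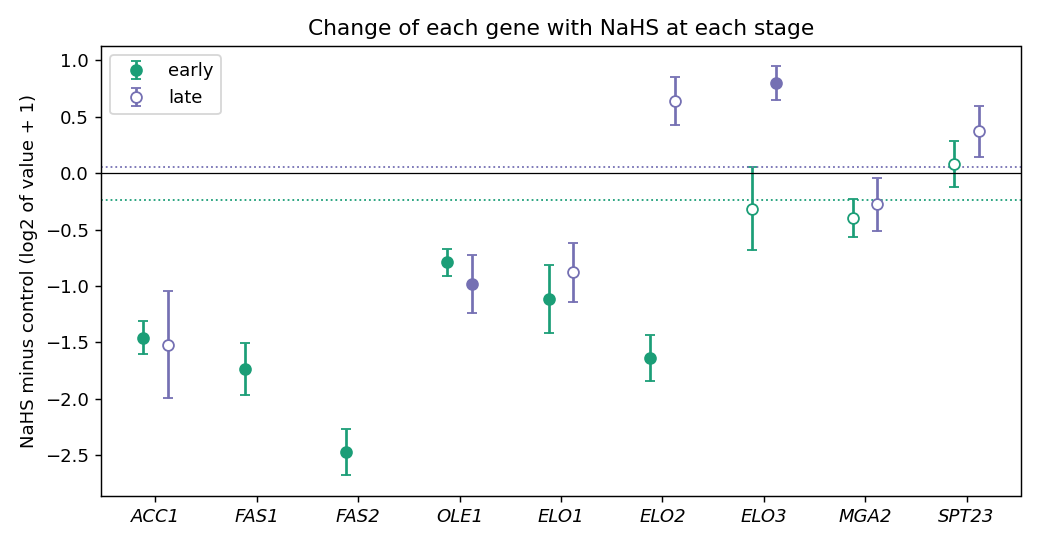
Log2 change with NaHS (log2 of value plus 1, NaHS minus control) for each gene in early (green) and late (purple) cultures; bars are 1 standard error, filled points passed limma's adjusted p of 0.05, and dotted lines are the medians of all genes tested at each stage (-0.24 and 0.053). FAS1 and FAS2 are not drawn late because of zeros; ELO2 lies at -1.64 early and 0.64 late.

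The late response was set against the early one by an interaction term over all 12 libraries, each table its own reference. ELO2 alone among the 9 differed, by 2.28 on the log2 scale (late change minus early change, SE 0.301, limma adjusted p = 0.000538), where 22.8% of 5165 genes were called, 15.2% higher and 7.55% lower. Its change was -1.64 early and 0.64 late. The difference passed in all 22 alternatives that could be fitted, ranging from 1.74 to 2.49, while the median of all genes was 0.25 as deposited and 0.0044 with median-ratio scaling. ELO3 had a difference of 1.11 that did not pass (SE 0.414, adjusted p = 0.0758), and it passed without early NaHS 3 (1.53, adjusted p = 0.0012). For ACC1, OLE1, ELO1, MGA2 and SPT23 the difference was between -0.19 and 0.29, with adjusted p of 0.540 or higher. The differences of FAS1 and FAS2 are not given, because their late zeros leave them to the pseudocount; neither was called, and FAS2 was called without late NaHS 3 (adjusted p = 0.00668).

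The place of the elongases within their tables also differed, which was not tested because the tables were normalized separately. In early controls ELO3 was above 28.7% to 33.4% of protein-coding genes and ELO2 above 39.4% to 47.1%. In late controls ELO3 was above 91.1% to 91.6% and ELO2 above 81.4% to 84.6%. ELO1 was above 76.5% to 76.9% in early controls and 66.3% to 75.6% in late ones, and OLE1 above 91.4% to 92.8% and 92.7% to 94.7%. With NaHS late, ELO3 stood above OLE1 without overlap, whereas in late controls OLE1 was the highest of the 9.

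Genes whose libraries followed each member most closely were sought among 3182 genes, those without a 0 whose mean reached 10 in each table, by the root mean square difference of log2 values centred within each table over the 12 libraries. OLE1 was nearest to IST2 (0.179), ADE2 (0.221) and IDP2 (0.221), which encode a membrane protein that tethers the cortical endoplasmic reticulum, an enzyme of purine synthesis and an NADP-dependent isocitrate dehydrogenase. IST2 fell by 0.88 early and 0.85 late on the log2 scale. ELO2 was nearest to RPS2 (0.153), a small ribosomal subunit gene, whose mean was 483 TPM in early controls and 139.7 TPM with NaHS, and 4978 and 6220 FPKM in the late groups. ACC1 was nearest to PYC2 (0.309), a pyruvate carboxylase, which fell by 1.42 early and 1.30 late on the log2 scale. The nearest to ELO1, ELO3, MGA2 and SPT23 were SCS3 (0.123), the cyclin-dependent kinase gene CDC28 (0.225), TML25 (0.104) and the arrestin gene LDB19 (0.108). These distances were taken on values plus 1, which compresses the changes of low genes. For MGA2 the early log2 change was -0.40 with 1 added and -0.65 with 0.1 added. FAS1 and FAS2 have zeros and were not compared.

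Other genes of lipid synthesis were taken as 10 lists of 61 genes in all, chosen by role. In early cultures 60 were tested, of which 30 fell (50%, against 28.5% of all genes), 7 rose (11.7%, against 10.1%) and 23 did not pass. In late cultures 53 were tested, of which 9 fell (17%, against 9.99%), 3 rose (5.7%, against 5.28%) and 41 did not pass.

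The 3 partners of the elongases in the elongation cycle fell early. PHS1, the dehydratase, had a mean of 62.8 ± 3.25 TPM in controls and 17.7 ± 3.37 TPM with NaHS (SD, n = 3 throughout), and its log2 change was -1.79 (limma adjusted p = 0.000656). TSC13, the enoyl reductase, fell from 158 ± 0.785 to 71.2 ± 3.45 TPM, and IFA38, the ketoreductase, from 39.7 ± 2.06 to 19.4 ± 0.900 TPM. None of the 3 passed late by limma, with log2 changes of 0.15, -0.58 and 0.018. The late minus early difference passed for PHS1 (1.94, adjusted p = 0.00217) and IFA38 (1.01, adjusted p = 0.00366) and not for TSC13 (0.56, adjusted p = 0.0815).

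All 7 genes listed as acetyl-CoA and carboxylase partners fell early, with a median log2 change of -1.30 beside -0.24 for all genes. All 7 also passed under median-ratio and upper-quartile scaling. ALD6, which makes acetate, fell from 1376 ± 63.8 to 120 ± 73.1 TPM, and ACS1, an acetyl-CoA synthetase, from 2426 ± 257 to 241 ± 197 TPM. Late, ACB1, the acyl-CoA binding protein, fell from 400.4 ± 66.4 to 124 ± 20.8 FPKM and IDP2 from 117 ± 9.70 to 61.4 ± 2.69 FPKM. ALD6 was called higher late, but it was listed at 0 in at least 1 late library, so no fold change is given; the other 4 did not pass.

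In the inositol-choline response, INO2 and INO4, the activators that bind the ICRE, rose early and 6 of the other 7 genes fell. INO4 rose from 116 ± 4.88 to 209 ± 58.1 TPM (log2 change 0.82, limma adjusted p = 0.0197) and INO2 by 0.41 (adjusted p = 0.0351). INO1, the inositol synthase, fell from 512 ± 32.0 to 75.2 ± 19.3 TPM (adjusted p = 0.000367) and CHO1, the phosphatidylserine synthase, from 621 ± 12.5 to 155 ± 13 TPM (adjusted p = 0.00028). OPI1, the repressor, did not pass (-0.41, adjusted p = 0.113). Late, INO1 and OPI3, a phospholipid methyltransferase, fell by 2.23 and 2.80 on the log2 scale, CDS1 rose by 1.07, and 5 of the 8 tested did not pass.

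Acyl-CoA synthetases, which activate free fatty acids, gave 3 falls and 1 rise among 5 early. FAA4 fell from 67.1 ± 8.32 to 16.3 ± 8.21 TPM and FAA2 from 59.8 ± 4.76 to 15.3 ± 4.34 TPM, while FAA1 rose from 143 ± 4.30 to 195 ± 22.9 TPM. None of the 3 tested late passed. In glycerolipid synthesis 4 of 7 fell and 1 rose early. GPT2, an acyltransferase, fell from 138.5 ± 6.08 to 43.1 ± 20.8 TPM and PAH1, the phosphatidate phosphatase, fell by 0.92 on the log2 scale. DGA1, which makes triacylglycerol, rose by 0.44, and none of the 5 tested late passed.

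Sphingolipid genes, which use the very long chains, were called in both directions. Of 10 tested early, 3 fell, 2 rose and 5 did not pass, and with either median-ratio or upper-quartile scaling 1 fell and 4 rose. SCS7, the fatty acid hydroxylase, rose from 491 ± 28.5 to 927 ± 101 TPM. LAC1 rose by 0.66 whereas its paralog LAG1, the other ceramide synthase subunit, fell by 1.06 on the log2 scale, and TSC10 fell by 1.13. Late, SUR2 rose by 1.24, IPT1 fell by 1.06 and the other 8 did not pass.

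Mitochondrial fatty acid synthesis is a separate pathway that feeds lipoic acid. ETR1, its enoyl reductase, fell from 165 ± 3.38 to 35.6 ± 2.91 TPM early and from 24.7 ± 10.9 to 2.55 ± 0.425 FPKM late. ACP1, its carrier protein, fell by 0.98 early and by 1.31 late on the log2 scale. CEM1 also fell late (-1.05), and the other 5 of 7 tested early and 3 of 6 tested late did not pass. Among 5 genes that release SPT23 and MGA2 from the membrane, UBX2 fell (log2 change -0.999) and UFD1 rose (0.34) early, and CDC48 fell late from 216 ± 11.9 to 62.1 ± 2.86 FPKM. Of the 5 subunits of the SNF1 kinase, which inhibits ACC1, SNF4 fell early (-0.84) and the other 4 did not pass, and none of the 4 tested late passed. ARE1 and ARE2, the sterol acyltransferases, did not pass at either stage by limma. With median-ratio or upper-quartile scaling the early counts of each list moved by at most 1 gene in a direction, sphingolipid genes excepted, and 1 of the sterol acyltransferase genes then passed as higher.

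**Figure D4:**
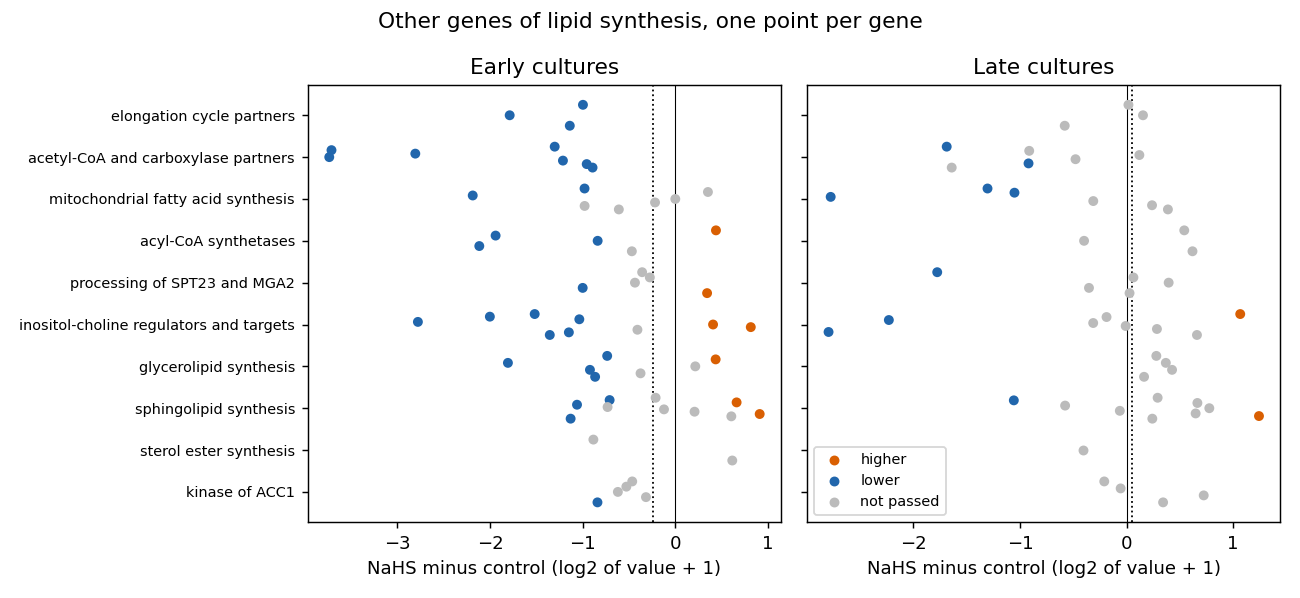
Log2 change with NaHS of the other lipid genes, 1 point per gene and 1 row per list, in early (left) and late (right) cultures; orange passed higher, blue passed lower, grey did not pass, the dotted line is the median of all genes, and 4 late genes with a 0 in a library are not drawn. In early cultures 30 of 60 points are blue, among them all points of the first and second rows.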

How the data were processed

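Reads of 12 libraries were trimmed with SeqPrep and Sickle and aligned with TopHat in orientation mode, per the labels' protocols; the submitters' processing notes name Bowtie 0.12.2 and build R64. No source used here names the quantifier or annotation (not given in the sources used here), nor whether counting used strand. The authors deposited TPM for early libraries, a unit read from the column totals, and FPKM for late ones, per the file headers. Late FPKM values below 3 in the deposited table are whole multiples, within 0.0006, of 0.01 times a factor per library (0.911 to 1.229, the latter in late control 2), whose origin is not stated.

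Entries naming no gene (319 early, 429 late; 0.485% to 1.27% and 4.71% to 5.30% of totals) were left out. Log2 of the value plus 1 was tested with limma 3.58.1 in R 4.3.3 (trend, 2-sided) where the mean reached 1, with Benjamini-Hochberg adjustment over every gene tested; the fit was tested on simulated data. Positions and sequences are RefSeq's R64, which holds 6048 entries of each table by systematic name; overlap with other entries was not checked.

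The 9 genes, the lists and the tests were chosen with earlier results of these data known. From each list the text names up to 2 called genes per direction and stage with the largest change, a mean of at least 10 and no 0; others (IFA38, ALD6 late, OPI1, CEM1, ARE1 and ARE2) were named after their values were seen. Alternatives were other pseudocounts, filters and scalings, a replicate block, no trend and each library left out; leaving out genes with a 0 and removing the late factors were added after seeing the data.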

Additional observations from a re-analysis of the deposited data

Results flagged for a closer look

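ELO2 is listed here because its change with NaHS differed between the stages by the interaction test: the late change exceeded the early one by 2.28 on the log2 scale (SE 0.301, limma adjusted p = 0.000538). All 3 early NaHS libraries were below all early controls, and all 3 late NaHS libraries were above all late controls, although the late change on its own did not pass.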

How the results depend on the processing

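The calls of ACC1, FAS1, FAS2 and ELO2 in early cultures held in every alternative that could be fitted. Deviations of same-numbered libraries correlated at -0.035, -0.011 and -0.028 early and at -0.11, 0.086 and 0.041 late. Those of differently numbered libraries correlated at -0.044 to 0.076 early and at -0.20 to 0.19 late. These correlations cannot settle if same-numbered libraries were paired. With the replicate block 487 late genes were called in place of 816, and 1 of the 9 in place of 2, ELO3 having an adjusted p of 0.0632. The late count over the 9 was also 1 without the low-value filter, with equal totals, without the trend and with the late factors removed. For the stage difference it was 2 with a pseudocount of 5 and 0 with a mean of at least 10, where ELO2 is not tested. With libraries left out in turn, all genes called ranged from 1389 to 3253 early and from 413 to 871 late, and the 9 from 5 to 9 early (9 without early NaHS 3, 8 lower and 1 higher), from 0 to 3 late and from 1 to 2 for the difference. Leaving out early control 1, 2 or 3 gave 1423, 1389 and 1489 genes. For single genes and ratios, 531 alternative values counted as unchanged, 12 newly passed, 21 no longer passed and 18 changed sign. Unchanged meant the same direction and side of the threshold for a gene, and only the same direction for a ratio. Alternatives of ratios were not tested against a threshold.

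Small stage differences changed sign: FAS1 was 0.19 with a pseudocount of 5, ELO1 and MGA2 were -0.039 and -0.049 with median-ratio and -0.0083 and -0.015 with upper-quartile scaling, and ACC1 was 0.0081 with the late factors removed. With libraries left out the difference ranged from -0.47 to 0.37 for ACC1, -1.08 to 0.11 for FAS1, -0.12 to 0.49 for ELO1, -0.37 to 0.032 for OLE1 and -0.052 to 0.25 for MGA2. The early change of SPT23 ranged from -0.040 to 0.31. Late log2 ratios over FAS1 have a denominator of 0 in 4 of 6 libraries and are set by the pseudocount, so nothing is read from them: their differences ranged from -0.88 to 1.05 for ACC1 and from -0.90 to 1.82 for OLE1 with libraries left out, and were 1.77 and 2.55 with a pseudocount of 0.1. The same holds for the stage difference of FAS1. FAS1 was not tested late without control 1, its mean then being below 1. The causes were not tested.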
